A study of Homo sapiens with 4 samples.

Results

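The BCL2 family decides whether the outer membrane of mitochondria stays intact when a cell is under stress. Its anti-apoptotic proteins hold the pro-apoptotic ones in check. The effector proteins perforate the membrane, and the BH3-only proteins, which carry a short BH3 helix, either switch the effectors on or occupy the anti-apoptotic proteins. In carcinoma cells of the lung the balance among these proteins sets how readily a death signal leads to apoptosis, and much of it is set after transcription, so transcript levels show only a part of it. The genes described here are 10 listed members of the family: BCL2, BCL2L1 and MCL1 as anti-apoptotic genes, BAK1 and BOK as effectors, and BID, BAD, BIK, BCL2L11 and BMF as BH3-only genes. All 10 were found among the 22465 named genes of the arrays, each as the row with the highest mean level among rows annotated with exactly 1 gene symbol. BCL2L11 had 2 such rows and each other member 1.

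The arrays measured A549, an established cell line of epithelial character from a human lung carcinoma, after lentiviral transduction with pLKO.1 vectors. The shCtl cells carried the control vector, called scrambled in the series design and a vector control in the sample labels. The shINSL4 cells carried a hairpin against INSL4, a peptide hormone gene of the insulin and relaxin family, and the titles name a single hairpin (A). Each group had 2 independent cultures, and nothing states that they were transduced separately, so the p-values reflect culture-to-culture spread only. Values are log2 RMA levels, a background-corrected and normalized probe summary, and a difference of 1 is a doubling of the signal. INSL4 itself was at 9.03 and 8.92 in shCtl and at 7.26 and 7.22 in shINSL4, which is 30.1% of the shCtl level.

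Across the whole array 15.8% of genes had an adjusted p below 0.05 in limma (Benjamini-Hochberg over the whole table), 6.41% as higher and 9.42% as lower in shINSL4. Higher genes made up 40.5% of these calls as deposited and 41.6% after quantile normalization. They made up 25.6% after centring each array on its median and 27.5% after cyclic loess normalization. Over all genes the log2 fold change had a median of 0.08. The epithelial markers EPCAM, KRT8, KRT18, KRT19 and CDH1 had a mean log2 level of 9.82 and 9.84 in shCtl and of 9.51 and 9.53 in shINSL4, and 4 of these 5 genes were called lower, the exception being KRT19. Of 9 measured immune, endothelial and fibroblast markers, 0 were called in either direction (1 was lower and 1 higher at an unadjusted p under 0.05), and the mean levels of these 3 lists ran from 5.30 to 6.85 on shCtl and from 5.44 to 6.94 on shINSL4 arrays. The part of the lower epithelial markers in the results below was not tested.

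Of the 10 BCL2 family genes, 1 fell in shINSL4, 0 rose and 9 did not pass the test, against the background of 15.8% of genes called. The gene that fell was BID, at 65.6% of its shCtl level. The arrays measured RNA of whole cultures, in which fewer cells with a transcript and less transcript per cell cannot be told apart. The median log2 fold change was 0.02 for the 3 anti-apoptotic genes, -0.01 for the 2 effectors and 0.09 for the 5 BH3-only genes, beside 0.08 for all tested genes. In the deposited values the groups did not overlap for 4 of the 10 members, BAD, BIK and BCL2L11 as higher and BID as lower. Over all genes 68.9% had groups that did not overlap, 48.0% as higher and 20.8% as lower. These counts moved with the normalization. After quantile normalization 4 members were apart as higher and 3 as lower, beside 37.1% and 24.4% of all genes. Median centring gave 3 and 4 members, beside 35.6% and 26.3%, and cyclic loess 4 and 3, beside 29.7% and 29.2%. In the deposited values BID and BIK passed at an unadjusted p under 0.05 in limma, against 34.3% of all genes. The 1 member called lower is a share near the 9.42% of all genes called lower, so the count says nothing particular to the family.

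**Figure D1:**
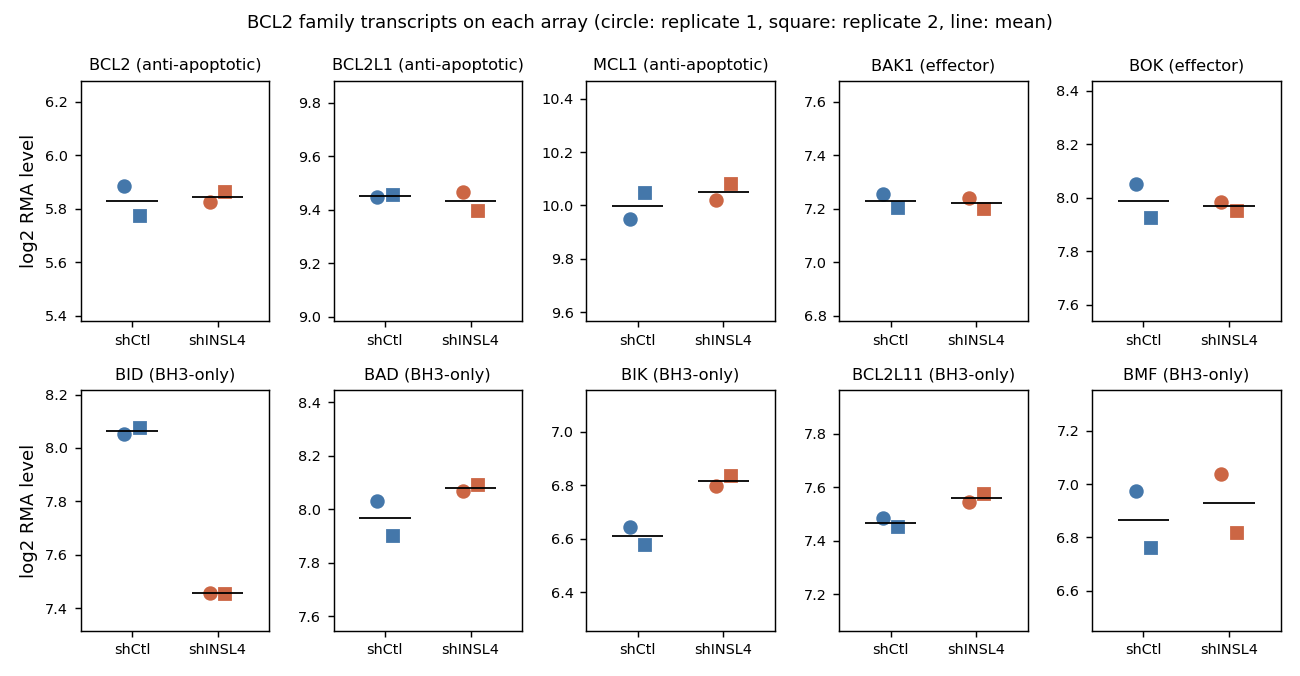
Log2 RMA level of each BCL2 family gene on the 4 arrays (vertical axes, each spanning the same number of log2 units), with shCtl in blue, shINSL4 in orange, circles for replicate 1, squares for replicate 2 and lines for group means. BID drops from about 8.06 to 7.46 with closely matching replicates, while the groups of BCL2, BCL2L1, MCL1, BAK1, BOK and BMF overlap.

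BID fell, and its fold change had the smallest standard error of the 10 members. BID is the BH3-only protein that couples death receptors to mitochondria: caspase-8 cuts it, and the truncated form activates the effectors BAX and BAK1. Its log2 level was 8.05 and 8.08 in shCtl and 7.46 and 7.46 in shINSL4. Both shINSL4 cultures lay 0.59 or more below both shCtl cultures, a gap many times the spread within either group (SD 0.0174 in shCtl and 0.00153 in shINSL4, n = 2 each). BID fell by 0.61 on the log2 scale (SE 0.0603, adjusted p = 0.00134, limma with Benjamini-Hochberg adjustment), a level 1.52-fold lower, with a 95% interval of 59.4% to 72.5% of the shCtl level. A fall at least as large was seen for 2.80% of all tested genes. The call held in all 15 alternatives, with adjusted p-values in limma from 4.99e-05 to 0.0187 and log2 fold changes from -0.66 to -0.59. The alternatives include the main fit at a looser threshold, which could not lose the call. They also include the averaging of a gene's rows, of which BID has only 1.

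A second row of the array lies within the BID gene. In the GRCh38.p14 gene table the microRNA gene MIR3198-1 is the only annotated gene inside the span of BID on chromosome 22, and both are on the minus strand. It was examined after the fall of BID had been seen. Its RefSeq sequence is shown because the row may report either the microRNA or the surrounding BID transcript, which cannot be told apart here. The hairpin lies at chr22:17764180-17764259 in GRCh38.p14 and is printed 5′ to 3′ with the mature arm in capitals, and the mature form at chr22:17764190-17764211 with its seed, bases 2 to 8, in capitals.
MIR3198-1 hairpin: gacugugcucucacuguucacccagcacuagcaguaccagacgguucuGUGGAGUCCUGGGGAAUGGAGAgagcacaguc
hsa-miR-3198: gUGGAGUCcuggggaauggaga

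The MIR3198-1 row was at 8.23 and 8.18 in shCtl and at 7.66 and 7.76 in shINSL4, so its groups did not overlap either. It fell by 0.49 on the log2 scale (SE 0.0678, adjusted p = 0.00477, limma with Benjamini-Hochberg adjustment), to 71.1% of the shCtl level. Its adjusted p was 0.134 in limma's treat against a fold of 1.2 (range 0.000337 to 0.134 over the 15 alternatives). The 95% intervals of the MIR3198-1 row, 63.5% to 79.5%, and of BID overlap. The nearest tested genes outside BID did not pass. MICAL3, a flavoprotein oxidase gene on one side, had a log2 fold change of 0.02 (SE 0.0612). BCL2L13, a family relative on the other side that is known as a mitophagy receptor, had one of 0.15 (SE 0.0673), and ATP6V1E1, a proton pump subunit gene next to it, one of 0.10 (SE 0.0666).

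The other 4 BH3-only genes did not pass the test. BIK, an endoplasmic reticulum BH3-only protein that neutralizes BCL2 and BCL2L1, was at 6.64 and 6.58 in shCtl and at 6.80 and 6.83 in shINSL4. The groups of BIK did not overlap, and its log2 fold change was 0.21 (SE 0.0635, adjusted p = 0.0748, limma with Benjamini-Hochberg adjustment), or 115% of the shCtl level with a 95% interval of 104% to 128%. With the lowest 40% of genes by level left out, its adjusted p in limma was 0.0267, in a range of 0.0267 to 1.00 over the 15 alternatives. BCL2L11, which encodes BIM, a broad partner of the anti-apoptotic proteins, was at 7.48 and 7.45 in shCtl and at 7.55 and 7.57 in shINSL4. Its log2 fold change was 0.09 (SE 0.0611, adjusted p = 0.299), and the second row of BCL2L11 had a log2 fold change of 0.03 (SE 0.0762) with overlapping groups.

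BAD, which is held inactive by phosphorylation and 14-3-3 proteins while growth factors are present, was at 8.03 and 7.90 in shCtl and at 8.07 and 8.09 in shINSL4. The gap between its groups was 0.04, smaller than the difference between the shCtl cultures, and its log2 fold change was 0.11 (SE 0.0702, adjusted p = 0.269). The span of BAD in the gene table partly overlaps that of GPR137, whose log2 fold change was -0.05. BMF, a BH3-only protein tethered to the myosin V motor, was at 6.97 and 6.76 in shCtl and at 7.04 and 6.82 in shINSL4. BMF had the widest spread of the members (SD 0.149 and 0.157, n = 2 each), its groups overlapped, and its log2 fold change was 0.06 (SE 0.103, adjusted p = 0.675).

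**Figure D2:**
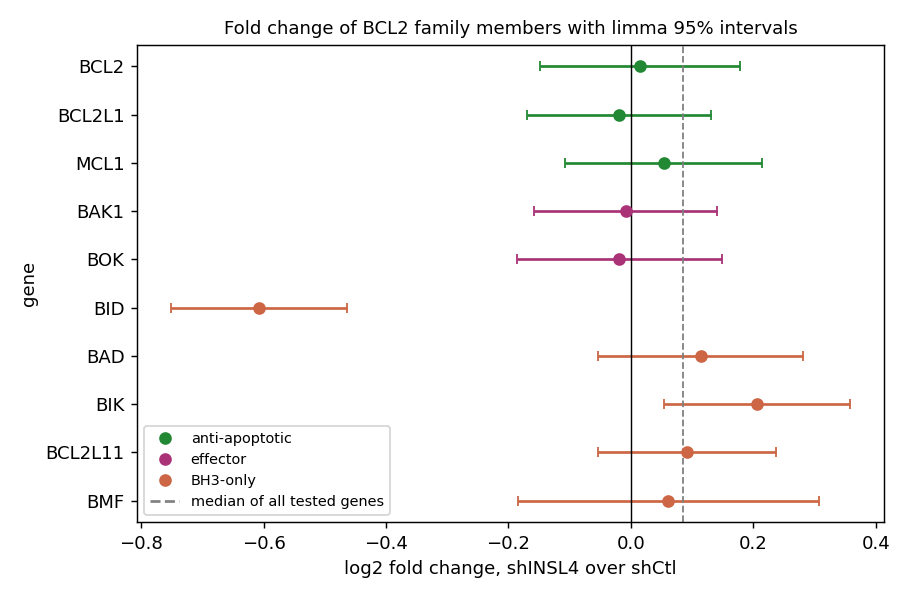
Log2 fold change of each member, shINSL4 over shCtl (horizontal axis), with limma's 95% interval as bars, coloured by role, and the median of all tested genes, 0.08, as a dashed line. The interval of BID lies wholly below 0, that of BIK wholly above 0 and the other 8 intervals include 0.

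None of the 3 anti-apoptotic genes passed. Their intervals cover the spread between arrays in the deposited values and not the choice of normalization. The log2 fold changes of MCL1, BCL2L1 and BCL2 were 0.0536, -0.0194 and 0.0154 as deposited. After quantile normalization they were 0.139, 0.0602 and -0.0800. MCL1, a short-lived guard of BAK1 and BIM on which many carcinoma cells depend, was at 9.95 and 10.05 in shCtl and at 10.02 and 10.08 in shINSL4. Its groups overlapped, and its level in shINSL4 was 104% of that in shCtl with a 95% interval of 92.8% to 116%. BCL2L1, which encodes BCL-XL and by alternative splicing the shorter BCL-XS, was at 9.45 and 9.45 in shCtl and at 9.47 and 9.40 in shINSL4, and its level was 98.7% of that in shCtl (88.9% to 110%). BCL2, the founding member, first found at a translocation in lymphoma, was at 5.89 and 5.77 in shCtl and at 5.82 and 5.86 in shINSL4, and its level was 101% of that in shCtl (90.3% to 113%). The row of BCL2 was dim, at percentile 27.6 of the tested genes by mean level, whereas the rows of BCL2L1 and MCL1 were at percentiles 94.7 and 97.3. Probe response differs between rows, so these percentiles give brightness on the array and not the ratio of the transcripts. Each row sums over splice forms, so a shift between BCL-XL and BCL-XS would not be seen.

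The effectors BAK1 and BOK did not pass either. BAK1, which with BAX forms the pores of the outer membrane, was at 7.26 and 7.20 in shCtl and at 7.24 and 7.20 in shINSL4, so the cultures differed more within than between groups. The log2 fold change of BAK1 was -0.01 (SE 0.0626), and the 95% interval of its level was 89.6% to 110% of shCtl. BOK, a BAX-like protein kept low by degradation at the endoplasmic reticulum, was at 8.05 and 7.92 in shCtl and at 7.99 and 7.95 in shINSL4. Its groups overlapped, with a log2 fold change of -0.02 (SE 0.0699) and an interval of 87.9% to 111%. BOK-AS1, a noncoding gene that partly overlaps BOK, had a log2 fold change of 0.18 (adjusted p = 0.207, limma with Benjamini-Hochberg adjustment).

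**Figure D3:**
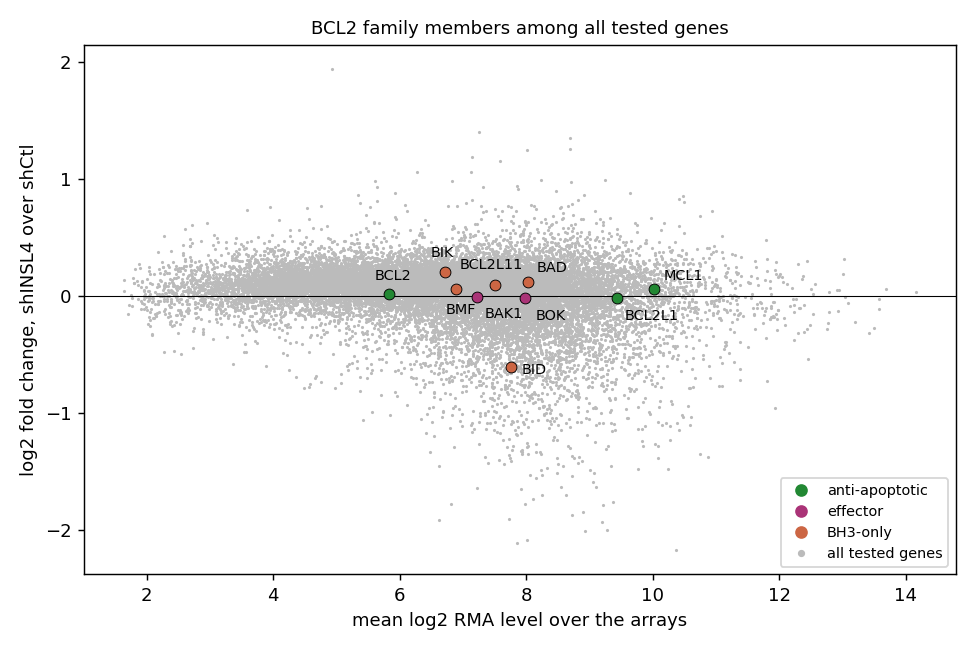
Log2 fold change, shINSL4 over shCtl (vertical axis), against the mean log2 RMA level over the 4 arrays (horizontal axis) for all 22465 tested genes in grey and the 10 members in colour by role. BID lies among the 2.80% of genes with the largest falls, and the other 9 members lie within the dense band between -0.02 and 0.21.

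The genes that act around these members were described with 9 lists of 77 symbols, of which 71 were measured. Of the 71 genes, 6 rose and 12 fell (8.45% and 16.9%, beside 6.41% and 9.42% of all tested genes), and their median log2 fold change was 0.04. Most of the 71 were bright, while all tested genes include the dim ones, so these shares are not compared at like level. The lists were also chosen with earlier results of these data known, so the shares describe the lists and do not test them. With the lowest 40% of genes by level left out, 2223 of all genes were called higher and 2474 lower, against 10 and 13 of the listed genes. The filter leaves fewer genes in both totals, so these counts cannot be set beside the shares above. Whether the listed genes exceed all genes at like level was not tested.

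Among 8 other BCL2 homologs 1 rose and 1 fell, with a median of 0.11. BAX, the effector that works beside BAK1, was at 9.19 and 9.21 in shCtl and at 9.57 and 9.61 in shINSL4. BAX rose by 0.39 on the log2 scale (SE 0.0616, adjusted p = 0.00791, limma with Benjamini-Hochberg adjustment), a level 1.31-fold higher. BCL2L15, a little-studied relative, was at 5.64 and 5.58 in shCtl and at 5.00 and 5.11 in shINSL4 and fell by 0.55, in a dim part of the scale. Among 4 other BH3-only and BNIP genes 1 rose and 0 fell, with a median of 0.09. PMAIP1, which encodes NOXA, a BH3-only protein that binds MCL1, was at 7.73 and 7.82 in shCtl and at 8.22 and 8.27 in shINSL4, a level 1.38-fold higher.

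Upstream of BID, 1 of 7 measured genes for death receptors and the steps from them to BID rose and 0 fell, with a median of 0.12. That gene was TNFRSF10A, a receptor for TRAIL, at 8.82 and 8.92 in shCtl and 9.38 and 9.37 in shINSL4, a level 1.42-fold higher. Downstream of the mitochondria, 2 of 9 apoptosome, caspase and released-protein genes fell and 0 rose, with a median of 0.00. CYCS, the cytochrome c gene, was at 9.30 and 9.42 in shCtl and at 8.86 and 8.84 in shINSL4, a level 1.42-fold lower. APAF1, which cytochrome c assembles into the apoptosome, was 1.28-fold lower. Among 6 inhibitor of apoptosis genes 2 fell and 0 rose, with a median of -0.03. BIRC5, which encodes survivin, a protein that also serves in chromosome segregation, was at 8.56 and 8.46 in shCtl and at 7.96 and 7.93 in shINSL4 and fell by 0.56. XIAP, a direct inhibitor of caspases, fell by 0.30. Of 6 outer membrane partners such as the VDAC channels, 0 rose and 0 fell (0 higher and 2 lower at an unadjusted p under 0.05 in limma), with a median of -0.06.

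Among 9 genes that control how long the MCL1 protein lasts, 1 rose and 2 fell, with a median of 0.04. FBXW7, the F-box protein that can bring MCL1 to a ubiquitin ligase, was at 7.10 and 7.18 in shCtl and at 7.83 and 7.93 in shINSL4 and was 1.67-fold higher (adjusted p = 0.00102, limma with Benjamini-Hochberg adjustment). HUWE1, another ubiquitin ligase for MCL1, fell by 0.29, and USP13, a deubiquitinase that can stabilize MCL1, fell by 0.37 on the log2 scale. The MCL1 protein was not measured. Among 15 kinase and sequestering genes for BAD, BCL2L11 and BMF, 2 rose and 3 fell, with a median of -0.08. The BAD kinase gene RPS6KA1 fell by 0.40, and the 14-3-3 genes YWHAB and YWHAQ fell by 0.32 and 0.27 on the log2 scale. The other listed 14-3-3 genes were not called and went mostly the other way. Their log2 fold changes were 0.23 for SFN, 0.19 for YWHAH, 0.12 for YWHAG, 0.10 for YWHAE and -0.10 for YWHAZ. FOXO3, a transcription factor that induces BCL2L11, rose by 0.35, and DYNLL2, the light chain that holds BMF, rose by 0.23.

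The 7 endoplasmic reticulum and autophagy partners had the largest falls of the lists, with 2 lower, 0 higher and a median of 0.02. BECN1, an autophagy protein with a BH3 domain that BCL2 and BCL-XL bind, was at 9.80 and 9.88 in shCtl and at 8.22 and 8.42 in shINSL4, a level 2.86-fold lower. ITPR3, a calcium release channel that BCL2 family proteins regulate, was at 8.65 and 8.62 in shCtl and at 7.70 and 7.80 in shINSL4, a level 1.84-fold lower (adjusted p = 0.000514, limma with Benjamini-Hochberg adjustment). Of the 18 partner genes called, 8 lost the call without shINSL4 replicate 1: APAF1, XIAP, HUWE1, USP13, YWHAB, YWHAQ, DYNLL2 and FOXO3. Without either shINSL4 array the standard error was 0.131 for BID, BCL2 and INSL4 alike, against 0.0603, 0.0683 and 0.0684 with all arrays. Losses in those fits thus follow the size of the fold change and do not show that a gene depends on the array left out. Of these 8, APAF1, XIAP, YWHAB, YWHAQ and DYNLL2 also lost the call without shCtl replicate 2. DYNLL2 lost it after median centring or cyclic loess, and XIAP, HUWE1 and YWHAQ lost it after quantile normalization. With all rows of the array tested, these 8 genes, BAX (adjusted p = 0.0618) and RPS6KA1 (adjusted p = 0.0553) were no longer called in limma with Benjamini-Hochberg adjustment, and against a fold of 1.2 in limma's treat only BIRC5, FBXW7, BECN1 and ITPR3 of the 18 passed.

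**Figure D4:**
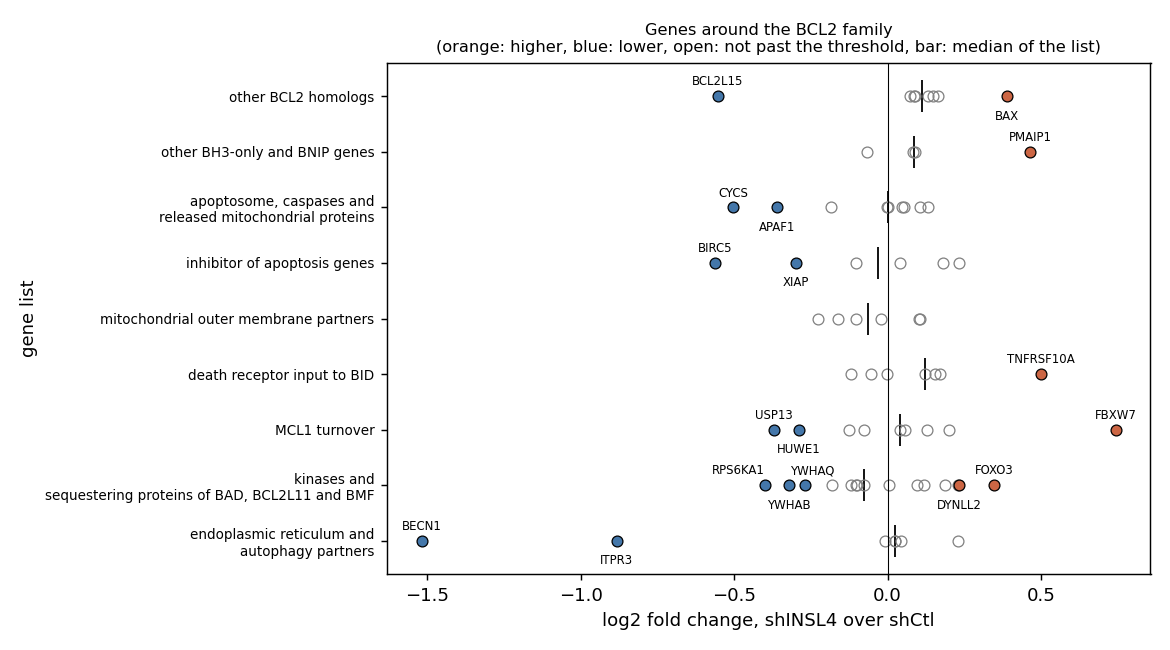
Log2 fold change, shINSL4 over shCtl (horizontal axis), of 71 genes around the BCL2 family in 9 lists (rows). Filled points passed the test (orange 6 higher, blue 12 lower), open points did not, and bars mark each list's median, which stays between -0.08 and 0.12.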

How the data were processed

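The authors deposited log2 values, as their range shows, which the submitters' processing notes credit to RMA and Affymetrix Expression Console. Their versions and the genome build were not given in the sources used here. The platform annotation listed a single symbol for 23781 of 67528 rows, several for 1543 and none for 42204. The brightest row per gene left 22465 genes, with no filter on dim genes. Groups came from the sample titles.

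The test was limma 3.58.1 under R 4.3.3, two-sided, with group as the only term in lmFit and then eBayes (2 residual and 4.68 prior degrees of freedom), with Benjamini-Hochberg adjustment over all genes at 0.05. Intervals use limma's moderated standard errors. An array gives no read depth; the 4 arrays limit the precision (median SE 0.0693). The pipeline was tested on simulated data. Named genes are the members, INSL4, each partner-list gene past the threshold, and, added after values were seen, BID's neighbours and genes that overlap a member. Members and lists were chosen with earlier results of these data known. Alternatives were the replicate block, variance trends, a level filter, 3 normalizations, the handling of rows, limma's treat, a looser threshold and leaving out each array.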

Additional observations from a re-analysis of the deposited data

How the results depend on the processing

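BID was called lower and INSL4 lower in all 15 alternatives, and the count of members called lower stayed at 1. The count called higher was 1 (BIK) in place of 0 with the lowest 40% of genes left out (log2 fold change 0.21, adjusted p 0.0267; fewer genes tested) and at an adjusted p under 0.1 (0.0748). BCL2 has no value under that filter. Members near 0 changed sign without passing the test: BCL2 to -0.0800 with quantile, -0.0325 with median centring and -0.0908 with cyclic loess normalization, BCL2L1 to 0.0602 and BOK to 0.0166 with quantile, and BMF to -0.0217 with cyclic loess; the cause was not tested. Leaving out each array gave -0.0415 to 0.0723 for BCL2, -0.0551 to 0.0163 for BCL2L1, -0.0347 to 0.0176 for BAK1, -0.0822 to 0.0448 for BOK and -0.0501 to 0.172 for BMF. The replicate block left BID at an adjusted p of 0.000951 in limma and changed the call of no member. Deviations of same-numbered arrays from their group means correlated at 0.232. With 2 cultures per group this value is the same for both replicate numbers by construction, so it is a single observation.

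Over all genes, 1440 were higher and 2117 lower. Higher calls numbered 2996 with the replicate block, 2223 with the level filter, 808 with median centring, 904 with cyclic loess and 2955 at an adjusted p under 0.1. With all rows tested 208 were higher and 957 lower, and with treat 109 and 677. Leaving out arrays gave 808 to 2999 higher and 1403 to 2430 lower. Among partner genes, 6 rose and 12 fell, against 10 higher with the level filter and at an adjusted p under 0.1, 3 and 5 with all rows tested, 1 and 3 with treat, and 4 to 8 and 6 to 13 with single arrays left out, where the lone array is assumed to vary like the others. The number of arrays limits what could be detected.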

Other observations

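The BMF row differed by replicate number in both groups: replicate 1 was higher than replicate 2 in shCtl (6.97 against 6.76) and in shINSL4 (7.04 against 6.82). The difference between shINSL4 and shCtl was 0.07 for replicate 1 and 0.06 for replicate 2 on the log2 scale, and the adjusted p was 0.423 with the replicate block (range 0.261 to 1.00 over the alternatives). The sources used here do not say that a replicate number marks a shared batch. For BID the same differences were -0.59 and -0.62, and for BIK 0.15 and 0.26.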
